A study of Mus musculus with 2 samples.

Results

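Tenocytes, the resident fibroblasts of tendon, were present among the cells sorted from mouse plantaris muscle. They were selected on measured values, as cells with at least 2000 unique molecular identifiers (UMIs, counted transcripts), under 10% mitochondrial UMIs, at least 5 UMIs summed over Tnmd, Chad and Kera, and no Pax7 UMI. The rule found 178 tenocytes among the 4954 cells of the series, 22 in the Sham library and 156 in the mechanical overload (MOV) library. The study compared muscle stem cells (MuSCs) of 26-week-old Pax7rtTA; TRE-H2B-GFP mice after Sham surgery or MOV, with 1 single-cell RNA-seq library for each condition. In this strain, a doxycycline-dependent activator made from the Pax7 locus switches on a histone-linked green fluorescent protein, so the label marks cells that use Pax7. All animals received doxycycline at 2.0 mg/mL in sweetened drinking water for 2 weeks. MOV was produced by synergist ablation, in which the distal gastrocnemius tendon and part of the soleus are removed so that the plantaris carries the load. Sham surgery was an incision with probing of the plantaris tendon, and plantaris muscle was taken 5 days after either operation. The design text names a sort on the fluorescent label and the protocol names antibodies to VCAM, CD31, CD45 and Sca1, while the methods describe a VCAM-positive gate without the other 3 surface proteins. The labels speak of a single mouse and the methods of several per condition, so each library was treated as 1 sample with no spread between animals.

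Tendon is built from parallel type I collagen fibrils whose assembly and spacing are set by small leucine-rich proteoglycans, by thrombospondins and by minor collagens that sit on or inside the fibril. Tenocytes are defined by the transcription factors scleraxis (Scx) and Mohawk (Mkx) and by the membrane glycoprotein tenomodulin (Tnmd), and they respond to load through the matrix that they make. Tendon continues into muscle at the myotendinous junction, and muscle also holds Pdgfra-expressing fibro-adipogenic progenitors, interstitial fibroblasts that make much of the muscle matrix. These Pdgfra cells were the reference here, taken as cells under the same limits with at least 2 Pdgfra UMIs and fewer than 5 UMIs over Tnmd, Chad and Kera.

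The genes that chose the cells are Tnmd (chromosome X, 133850980 to 133865577, plus strand), Chad (chromosome 11, 94565047 to 94569127, plus strand) and Kera (chromosome 10, 97606879 to 97613692, plus strand), in the coordinates of the mouse build GRCm38. The 250 bases before the RefSeq start of 4 genes are shown because the results turn on them. Tnmd and Chad carried most of the UMIs of the rule, Fmod is a tendon proteoglycan outside the rule that nearly all tenocytes held, and Mmp13 had UMIs in MOV tenocytes and none in Sham tenocytes. Sequences are from RefSeq, build GRCm38.p6, plus strand, at chrX:133850758-133851007 for Tnmd, chr11:94564797-94565046 for Chad, chr1:134037004-134037253 for Fmod and chr9:7272264-7272513 for Mmp13. Capitals mark an E-box (CANNTG, the kind of site that scleraxis binds, the same on both strands) in the Tnmd, Chad and Fmod stretches. In the Mmp13 stretch they mark an AP-1 motif (TGACTCA, or TGAGTCA on the other strand), the kind of site that FOS and JUN dimers bind.
Tnmd: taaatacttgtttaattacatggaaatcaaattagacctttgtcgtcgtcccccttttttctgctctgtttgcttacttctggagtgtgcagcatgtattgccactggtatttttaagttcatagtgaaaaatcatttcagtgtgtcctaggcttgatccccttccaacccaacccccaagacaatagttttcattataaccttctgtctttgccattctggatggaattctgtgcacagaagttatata
Chad: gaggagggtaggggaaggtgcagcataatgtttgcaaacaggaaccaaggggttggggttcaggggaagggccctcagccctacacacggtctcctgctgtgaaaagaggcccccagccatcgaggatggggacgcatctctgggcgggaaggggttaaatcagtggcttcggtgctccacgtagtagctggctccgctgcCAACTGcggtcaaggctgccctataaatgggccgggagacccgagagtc
Fmod: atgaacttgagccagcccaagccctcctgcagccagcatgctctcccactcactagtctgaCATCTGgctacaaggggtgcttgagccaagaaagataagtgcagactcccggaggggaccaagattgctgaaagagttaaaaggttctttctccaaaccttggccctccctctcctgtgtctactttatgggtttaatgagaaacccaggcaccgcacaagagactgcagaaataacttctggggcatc
Mmp13: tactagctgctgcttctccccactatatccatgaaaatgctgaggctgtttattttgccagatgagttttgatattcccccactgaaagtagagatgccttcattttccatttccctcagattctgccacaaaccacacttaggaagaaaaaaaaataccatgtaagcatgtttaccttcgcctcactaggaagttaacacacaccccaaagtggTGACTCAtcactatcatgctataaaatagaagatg
The Tnmd stretch held no E-box. The Chad stretch held CAACTG starting 49 bases before the start, and the Fmod stretch held CATCTG starting 189 bases before it. E-boxes of this short form are common, and 66.2% of 32851 mouse promoters of the same length held at least 1. The Mmp13 stretch held TGACTCA 35 bases before the start, and 4.46% of promoters held an AP-1 motif. These matches are letters in a window and no measurement of binding.

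The values that chose the cells are a description. In CPM (the UMIs of a gene summed over a group of cells and scaled to the same total in every group), Tnmd was at 1783 in Sham and 1272 in MOV tenocytes. Chad, the matrix protein chondroadherin, was at 3313 in Sham and 375 in MOV tenocytes. Kera, the proteoglycan keratocan, was at 576 and 313. All 3 genes were seen in 11 of 22 Sham members and in 52 of 156 MOV members. Of the other Sham members, 10 held Tnmd with Chad and 1 held Chad with Kera. Of the other MOV members, 21 held Tnmd with Chad, 35 held Tnmd with Kera and 48 held Tnmd alone. Many members of both libraries thus held only part of the set, and members without Chad were seen in MOV alone. Sham members held 11 to 153 rule UMIs each with a median of 46.5, far from the threshold, and no Sham cell held 3 to 6. MOV members held 5 to 238 with a median of 30.5. Just inside the threshold, 14 MOV members with 5 or 6 rule UMIs had Fmod at 445 CPM and Scx at 231 CPM, and just outside it, 16 MOV cells with 3 or 4 had Fmod at 276 CPM and Scx at 149 CPM. Cells on both sides of the threshold were therefore low in tendon genes and deep, with medians of 34841 and 34660 UMIs, and 35.7% and 25% of them held at least 2 Pdgfra UMIs.

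Tenocytes made up 3.81% of the Sham cells that passed the depth and mitochondrial limits (22 of 578, exact 95% binomial interval 2.40 to 5.71%) and 5.66% of the MOV cells (156 of 2754, 4.83 to 6.59%). The order depends on depth. When every cell was thinned to 2000 UMIs before the rule, 20 Sham cells (3.46%, 2.13 to 5.29%) and 63 MOV cells (2.29%, 1.76 to 2.92%) still met it, which turns the order around. Relative to Pdgfra cells, there were 84.6 tenocytes per 100 in Sham (26 Pdgfra cells) and 39.8 per 100 in MOV (392 Pdgfra cells). Both groups are set by fixed UMI limits, and Pdgfra cells had medians of 11871 UMIs in Sham and 37750.5 in MOV. This ratio was not computed at equal depth. Digestion and the sort decide which cells reach a library, so these shares are shares of the sorted suspension.

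The libraries held 7302661 UMIs over 1100 Sham cells and 88498487 over 3854 MOV cells. Sham tenocytes had a median of 9686.5 UMIs (2644 to 24367) and MOV tenocytes 21985 (3966 to 88011), giving 236066 and 3919169 summed UMIs. The Sham values are thus less precise, and intervals below are exact 95% intervals that cover counting error only. The 2 libraries shared 44 cell barcodes, none of them a tenocyte. No test was run, since neither condition has a second library, and values are set side by side. A gene is called here when it held at least 20 UMIs over both groups and differed at least 2-fold in CPM. A group with no UMI was set to 3 counts, and such a ratio is written as at least or at most.

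The label of the cells was checked on tendon markers that the rule did not use. Fmod (fibromodulin, a proteoglycan that binds collagen fibrils, chromosome 1, 134037254 to 134048277, plus strand) was at 11683 CPM in Sham and 3066 CPM in MOV tenocytes, against 2.58 and 62.2 CPM in the Pdgfra cells of the same libraries and 3.09 CPM in MOV cells with at least 2 Pax7 UMIs that were neither tenocytes nor Pdgfra cells (Pax7 cells). It was seen in 100% of Sham and 98.7% of MOV tenocytes, and after thinning in 100% and 84.0%, against 11.2% of MOV Pdgfra cells and 0.608% of MOV Pax7 cells. Single Sham tenocytes ran from 2482 to 25575 CPM with a median of 9125, and single MOV tenocytes from 0 to 17575 with a median of 2548. The ranges overlapped, and the lowest Sham tenocyte lay above the highest Pdgfra cell of either library (1437 CPM). Comp (cartilage oligomeric matrix protein, a thrombospondin of tendon and cartilage) was at 3033 CPM in Sham and 1441 CPM in MOV tenocytes, and at 15.5 and 29.8 CPM in Pdgfra cells. Both unused markers therefore went with the label in each library.

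Immune, endothelial and Schwann cell markers were low in most tenocytes but not absent, and mural markers were not low. Pecam1 (endothelium) and Ptprc (CD45, leukocytes) had no UMI in Sham tenocytes and were at 1.02 and 2.30 CPM in MOV tenocytes. The 9 immune markers summed to 16.9 CPM in Sham tenocytes, from 1 of the 9 genes, and to 167 CPM in MOV tenocytes, from all 9. No Sham member and 13 of 156 MOV members held at least 3 immune UMIs, and 1 MOV cell reached 15213 CPM. The same sum was 2770 CPM in Sham Pdgfra cells and 400 CPM in MOV Pdgfra cells, with 2 of the 26 Sham cells holding at least 3. The 7 endothelial markers summed to 0 and 5.61 CPM and the 6 Schwann cell markers to 21.2 and 9.70 CPM in Sham and MOV tenocytes. The 8 mural markers summed to 352 CPM in Sham and 1045 CPM in MOV tenocytes, above the 90.2 and 746 CPM in Pdgfra cells, and 8 of 22 and 116 of 156 members held at least 3 UMIs. Most of that sum was Acta2, which activated fibroblasts also make, at 220 and 901 CPM. Of 7 mural markers measured in MOV, 3 were at least 2-fold higher in tenocytes than in Pdgfra cells (Rgs5, Myh11 and Abcc9), each with UMIs in few of the tenocytes, and Rgs5 was at 58.2 CPM in MOV tenocytes with no UMI in Sham. The 10 myofibre markers summed to 724 CPM in Sham and 165 CPM in MOV tenocytes, close to the 667 and 158 CPM in the Pdgfra cells of the same libraries. Among MOV tenocytes, 29 (18.6%) also held at least 2 Pdgfra UMIs, against 1 (4.55%) of the Sham tenocytes. The part of these other transcripts in the results below was not tested, beyond the values given with such cells left out.

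**Figure D1:**
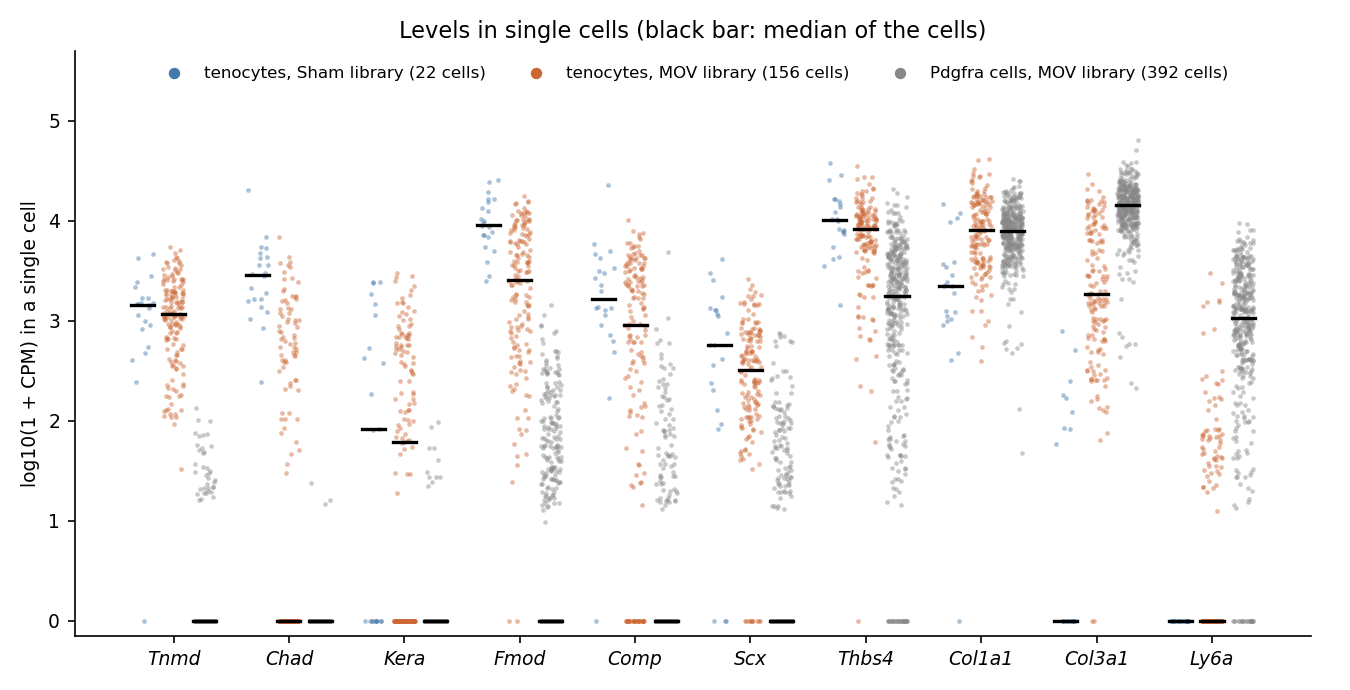
Levels in single cells as log10(1 + CPM) for 10 genes, with 22 Sham tenocytes, 156 MOV tenocytes and 392 MOV Pdgfra cells as points and the median of each group as a black bar. Fmod, Comp and Thbs4 sit high in both groups of tenocytes, while Col3a1 and Ly6a sit low in Sham tenocytes and high in Pdgfra cells.

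Against the Pdgfra cells of the MOV library, tenocytes were higher in tendon matrix genes and in the tendon factors Scx and Mkx, and similar in the type I collagen chains. They were lower in surface and retinoid genes of the interstitial fibroblasts and in immune genes. At least 3 immune UMIs were held by 89 of 392 MOV Pdgfra cells, and the source of these transcripts was not tested. Of 12338 genes measured in the MOV library, 655 (5.31%) were at least 2-fold higher in tenocytes and 1420 (11.5%) at least 2-fold lower, and the median log2 ratio of all genes was -0.13. In the Sham library, 396 of 4104 genes (9.65%) were higher and 706 (17.2%) lower, with a median of -0.14. Both groups of cells came from the same suspension and library, but the cells were chosen by tendon genes, so genes that go with Tnmd, Chad or Kera had to differ in part. The lists below came from general knowledge of tendon and matrix biology and were written with earlier results of these data known. They are therefore a description and no independent check of the label.

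Of 23 measured tendon matrix and marker genes, 16 were called higher in MOV tenocytes and 2 lower, with a median log2 ratio of 1.84. In the Sham library 18 of 22 were higher and 2 lower, with a median of 4.12. Thbs4, a thrombospondin of tendon and the myotendinous junction, was at 13221 CPM in Sham and 7571 CPM in MOV tenocytes, and at 631 and 2608 CPM in Pdgfra cells. Its log2 ratio was 1.54 (1.52 to 1.56) in MOV and 4.39 in Sham. Fmod gave 5.62 (5.53 to 5.72) and 12.15 (9.67 to 17.45), and Comp 5.60 (5.46 to 5.74) and 7.62 (6.49 to 9.07). Each of these 3 genes stood further from Pdgfra cells in Sham than in MOV.

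Cilp2, Ptx4 and Angptl7 had larger log2 ratios than Fmod, Comp and Thbs4 in MOV. In Sham, Ptx4 and Angptl7 lay below Fmod and Comp, and Cilp2 could not be ranked, as its Sham ratio is a bound. Cilp2, Ptx4 and Angptl7 were seen in 63.5%, 57.7% and 50% of MOV tenocytes, against 98.7% for Fmod and 82.7% for Comp. Cilp2, a cartilage intermediate layer protein, was at 373 CPM in Sham and 147 CPM in MOV tenocytes, against no UMI and 0.783 CPM in Pdgfra cells, a log2 ratio of 7.55 (6.74 to 8.51) in MOV and at least 5.59 in Sham. Ptx4, a pentraxin, was at 148 and 159 CPM against 2.58 and 0.718 CPM, a log2 ratio of 7.79 (6.94 to 8.80) in MOV. Angptl7, a secreted angiopoietin-like protein, was at 4422 and 520 CPM against 137 and 5.48 CPM, a log2 ratio of 5.02 (4.62 to 5.44) in Sham and 6.57 (6.25 to 6.90) in MOV. Angptl7 was thus seen in both groups of cells of the Sham library while remaining far higher in tenocytes. Prg4 (lubricin, which lowers friction at gliding surfaces) was less selective, at 3202 and 4645 CPM in tenocytes against 729 and 1413 CPM in Pdgfra cells. In Sham 53.8% of Pdgfra cells held a Prg4 UMI and 1 cell held 174. The exceptions in the list were Col14a1, with no UMI in Sham and 78.3 CPM in MOV tenocytes against 193 and 317 CPM, and the tendon sheath gene Tppp3, at 21.2 and 24.8 CPM against 325 and 187 CPM. Both were called lower in tenocytes of each library.

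**Figure D2:**
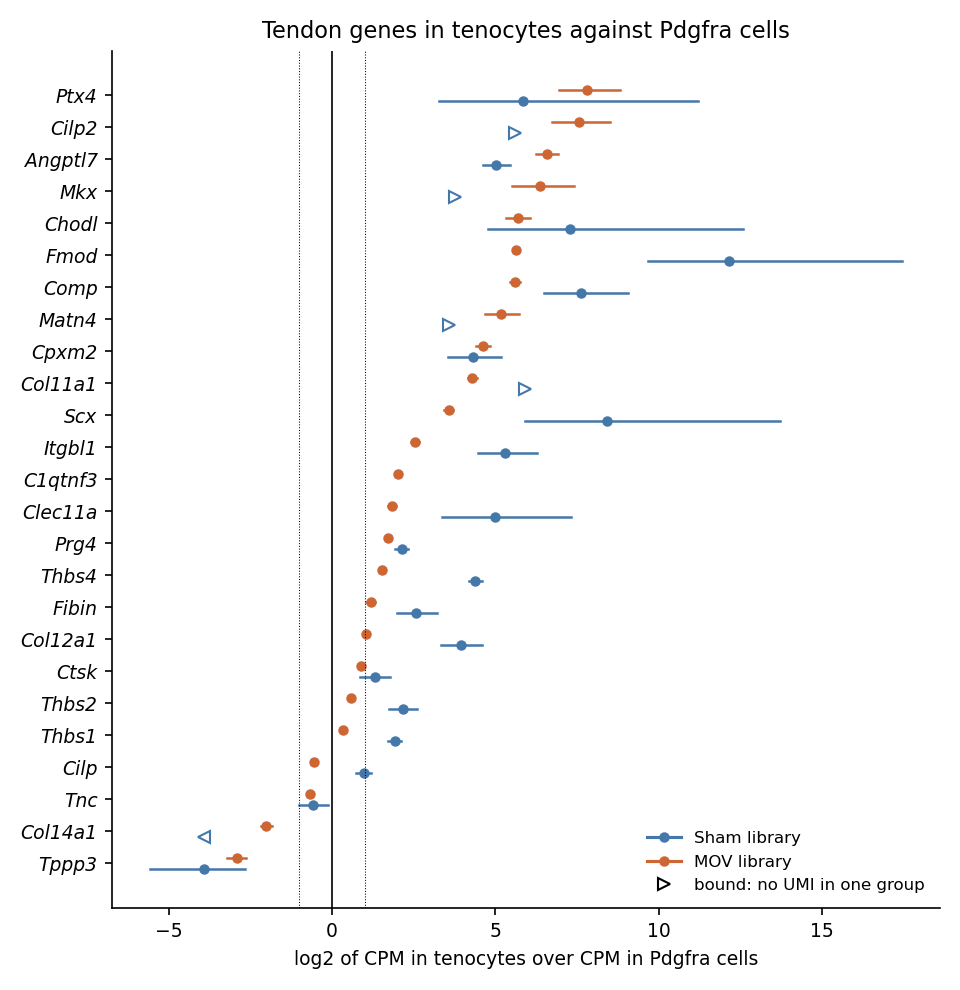
Log2 of CPM in tenocytes over CPM in Pdgfra cells for the tendon genes, Sham in blue and MOV in orange, with exact 95% counting intervals and open triangles where a group held no UMI. Dotted lines mark 2-fold. Most genes lie to the right of the dotted line in both libraries, and Col14a1 and Tppp3 lie to the left.

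Of 15 measured tendon transcription factors, 4 were called higher in MOV tenocytes (Scx, Mkx, Six2 and Etv4) and 2 lower (Osr1 and Osr2), with a median of 0.15. Scx was at 877 CPM in Sham and 458 CPM in MOV tenocytes. Pdgfra cells held 2.58 CPM in Sham and 38.7 CPM in MOV, giving log2 ratios of 8.41 and 3.56 (3.43 to 3.70). Scx was not confined to tenocytes after MOV, since MOV Pax7 cells held 47.3 CPM. Mkx, the homeobox gene Mohawk, was at 106 and 59.5 CPM in tenocytes against no UMI and 0.718 CPM in Pdgfra cells, a log2 ratio of at least 3.78 in Sham and 6.37 (5.51 to 7.39) in MOV. Six2, a homeobox gene, was at 46.6 and 11.0 CPM against no UMI and 0.261 CPM.

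Fibrillar collagens divided by chain. Col1a1 was at 4783 CPM in Sham and 11133 CPM in MOV tenocytes, and at 4419 and 8539 CPM in Pdgfra cells. Its log2 ratios of 0.11 and 0.38 and those of Col1a2 (0.34 and 0.33) stayed under 2-fold. Over single Sham cells the Col1a1 medians were further apart, at 2225 CPM in tenocytes and 857 CPM in Pdgfra cells. Col11a1, a minor chain found inside fibrils, was at 462 and 690 CPM in tenocytes against no UMI and 35.2 CPM in Pdgfra cells, a log2 ratio of at least 5.90 in Sham and 4.29 (4.16 to 4.43) in MOV. Col2a1 and Col11a2, chains best known from cartilage, were also called higher in MOV tenocytes, with Col2a1 at 12.8 and Col11a2 at 63.3 CPM. Col3a1, the type III chain of thin and repairing fibrils, was on the other side, at 144 CPM in Sham and 5901 CPM in MOV tenocytes against 5945 and 13890 CPM in Pdgfra cells. Its log2 ratio was -5.37 (-5.90 to -4.88) in Sham and -1.24 (-1.25 to -1.22) in MOV, so tenocytes held far less Col3a1 than Pdgfra cells in Sham and somewhat less in MOV. Among 11 measured fibril-forming collagens, 4 were called higher and 2 lower in MOV, with a median of 0.33.

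The small leucine-rich proteoglycans, which regulate fibril diameter, were on the tenocyte side in 5 of 11 cases in MOV (Dcn, Fmod, Prelp, Omd and Ogn), with 1 lower and a median of 0.54. Dcn (decorin) was at 25989 CPM in Sham and 8618 CPM in MOV tenocytes against 18270 and 3594 CPM in Pdgfra cells. Prelp was at 2093 and 362 CPM against 258 and 115 CPM. Lum (lumican) was the reverse, at 97.4 and 479 CPM in tenocytes against 1876 and 778 CPM, a log2 ratio of -4.27 in Sham and -0.70 in MOV. Mgp, an inhibitor of matrix calcification, was among the most abundant transcripts of tenocytes, at 9019 CPM in Sham and 14758 CPM in MOV against 714 and 2292 CPM.

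The 12 genes furthest above Pdgfra cells in MOV, by the counting bound nearest to no change, were Reg3g, Shisal2b, Wif1, Mmp13, Ptx4, Chil1, Cilp2, Angptl7, Gm525, Col22a1, Uts2r and Fmod. Wif1, a secreted inhibitor of Wnt ligands, was at 127 CPM in Sham and 60.0 CPM in MOV tenocytes. Pdgfra cells held no Wif1 UMI in Sham and a single UMI over all 392 cells in MOV, and the log2 ratio was 9.84 (7.35 to 15.15). Shisal2b was at 42.4 and 41.3 CPM and Uts2r, a urotensin receptor, at 42.4 and 13.5 CPM, with no UMI in any Pdgfra cell. Col22a1, a collagen of tissue junctions that includes the myotendinous junction, was at 102 and 105 CPM in tenocytes against 20.6 and 0.913 CPM in Pdgfra cells. The Sham Pdgfra value came from 1 cell with 8 UMIs. Chil1, a chitinase-like protein, was at 76.2 and 92.6 CPM against no UMI and 0.392 CPM, and 1 Sham cell held 16 of its 18 Sham UMIs. The predicted gene Gm525 was at 89.0 and 26.0 CPM against no UMI and 0.0652 CPM, with 13 of its 21 Sham UMIs in 1 cell. Wif1, Shisal2b, Uts2r, Col22a1, Chil1 and Gm525 were each seen in a minority of MOV tenocytes, unlike Fmod.

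Reg3g and Mmp13 had UMIs in few MOV tenocytes. Reg3g, an antimicrobial C-type lectin, was at 4.24 CPM in Sham tenocytes, from 1 UMI, and at 482 CPM in MOV tenocytes, where 19.2% of cells held it and 1 cell held 359 UMIs. Mmp13 (collagenase-3, which cleaves fibrillar collagen, chromosome 9, 7272514 to 7283331, plus strand) had no UMI in 22 Sham tenocytes. It was at 281 CPM in MOV tenocytes, where 12.2% of cells held it and 1 cell held 531 of the 1103 UMIs. MOV Pdgfra cells held 1.11 CPM of each, and the log2 ratios were 8.76 (8.08 to 9.54) for Reg3g and 7.99 (7.30 to 8.77) for Mmp13. The summed values therefore rest on a small number of cells.

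The 12 genes furthest below were Cxcl13, Arg1, Dmkn, Scara5, Ly6c1, Sfrp5, Aldh1a2, Clec3b, AW112010, H2-Aa, Cd74 and Dio3. Scara5, a ferritin receptor of interstitial fibroblasts, had no UMI in any tenocyte and was at 201 CPM in Sham and 21.3 CPM in MOV Pdgfra cells, a log2 ratio of at most -3.98 and at most -4.80. Aldh1a2, which makes retinoic acid, was at 12.7 and 12.5 CPM in tenocytes against 113 and 258 CPM. Clec3b (tetranectin) was at 89.0 and 10.7 CPM against 1147 and 183 CPM. Ly6c1 had no UMI in Sham and was at 21.4 CPM in MOV tenocytes against 531 and 524 CPM. These 4 genes were low in tenocytes of both libraries.

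Cxcl13, Arg1, Dmkn and Sfrp5 had no UMI in any tenocyte, and their levels in MOV Pdgfra cells were 68.1, 33.0, 31.2 and 14.9 CPM. Few Pdgfra cells carried them, 6.63% for Cxcl13, 20.4% for Arg1, 9.69% for Dmkn and 2.55% for Sfrp5, and 1 cell held 611 of the 1043 Cxcl13 UMIs. The class II genes H2-Aa and Cd74, which present antigen, were at 1.02 and 3.57 CPM in MOV tenocytes against 32.6 and 72.4 CPM in MOV Pdgfra cells. They were seen in 9.44% and 17.9% of those Pdgfra cells, with up to 187 and 367 UMIs in a single cell. AW112010 was at 3.32 CPM in MOV tenocytes against 71.4 CPM, and Dio3, which inactivates thyroid hormone, at 1.02 against 30.9 CPM. Of 17 fibro-adipogenic markers, 12 were called lower in MOV tenocytes and 2 higher (Gpx3 and Apod), with a median of -1.97. In Sham 14 of 17 were lower and 2 higher, with a median of -3.92. The immune genes had 6 of 9 lower in MOV and 7 of 7 in Sham, beside the immune sums of Pdgfra cells given above.

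Genes of the sort were measured directly. Ly6a, which encodes Sca1, had no UMI in 22 Sham tenocytes and was at 122 CPM in MOV tenocytes, against 1368 and 1555 CPM in Pdgfra cells. After thinning, 11.5% of MOV tenocytes held a Ly6a UMI, against 5.96% of MOV Pax7 cells and 70.4% of MOV Pdgfra cells. Vcam1 was at 29.7 CPM in Sham and 378 CPM in MOV tenocytes, against 79.9 and 167 CPM in Pdgfra cells and 569 CPM in MOV Pax7 cells. Its log2 ratio to Pdgfra cells was -1.43 (-2.86 to -0.22) in Sham and 1.18 (1.09 to 1.27) in MOV. The Sham ratio rests on few UMIs, with 7 in all Sham tenocytes and 26 in a single Sham Pdgfra cell. A Vcam1 UMI was seen in 22.7% of Sham tenocytes and 19.2% of Sham Pdgfra cells. Whether the direction differed between libraries is therefore not settled. Low Ly6a and the presence of Vcam1 in MOV tenocytes are RNA values, and surface protein was not measured in these files.

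Chemokines were lower in tenocytes than in Pdgfra cells for 9 of 21 measured genes in MOV (median -0.94) and 13 of 17 in Sham (median -2.93). The exception in both libraries was Ptgis, the prostacyclin synthase, at 504 CPM in Sham and 285 CPM in MOV tenocytes against 18.0 and 51.9 CPM. Elastic fibre and microfibril genes had 5 of 16 lower in MOV, among them Mfap5, at 76.2 and 955 CPM against 1157 and 3031 CPM. Fbln1 (fibulin-1) was higher, at 1178 and 287 CPM against 219 and 71.1 CPM. Among 23 proteases and inhibitors, 6 were higher and 6 lower in MOV tenocytes, with a median of 0.08.

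MOV tenocytes were next set beside Sham tenocytes. In MOV they held more type III, V and VI collagen, periostin and chemokine transcripts, and less fibromodulin, decorin, PRELP and immediate-early transcripts. Of 9141 genes measured, 1261 (13.8%) were at least 2-fold higher and 1301 (14.2%) at least 2-fold lower, and the median of all genes was 0. In simulated data for this comparison, the same call picked 10.8% of unchanged genes and 79% of changed genes. The simulated sums held counting error only, and spread between cells was not simulated. A sizeable part of the calls can therefore be genes that do not differ, and the counts are no measure of real differences. In Pdgfra cells of the same libraries, 1412 of 12018 genes (11.7%) were higher and 2010 (16.7%) lower, which is the measured size of a library difference in other cells. Of the tenocyte calls, 49.2% were in the higher direction. With TMM scaling, which moved every log2 ratio by 0.23, they were 1761 higher and 923 lower (65.6% higher), and with DESeq2 size factors, which moved it by 0.21, 1732 and 942 (64.8%). Counts of calls in either direction therefore depend on scaling, and ratios below are read relative to that shift.

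Depth bears on this comparison, since deeper cells pass a fixed UMI threshold at a lower level. Thinning every member to 2000 UMIs gave 509 genes higher and 224 lower, with fewer genes measured, and thinned log2 ratios are given below for the genes the results turn on. A choice made after the data were seen kept members that still held 5 rule UMIs after thinning, 20 in Sham and 62 in MOV. It selects on the rule genes, with a Chad UMI in 72.6% of those MOV members, and leaves depth unequal, with UMI medians of 10483.5 and 19667.5. Cells of each library share their source, and surgery cannot be told apart from any other difference between the 2 libraries.

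Collagen genes, and Col3a1 above all, stood apart between the conditions. Col3a1 was at 144 CPM in Sham and 5901 CPM in MOV tenocytes, with medians over single cells of 0 and 1837 CPM. It was seen in 40.9% of Sham and 98.7% of MOV tenocytes, and in 22.7% and 81.4% after thinning. Sham Pax7 cells held a Col3a1 UMI in 22.0% of cells after thinning, and MOV Pax7 cells in 66.3%. Whether the Sham UMIs came from the tenocytes themselves or from free RNA was not tested. The log2 ratio of MOV over Sham was 5.36 (4.87 to 5.89) in tenocytes, 4.67 after thinning and 1.23 (1.17 to 1.28) in Pdgfra cells. Ranges of single cells overlapped between libraries, as the highest Sham tenocyte held 780 CPM.

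Other chains went the same way. Col5a1, which limits fibril diameter, was at 21.2 CPM in Sham and 587 CPM in MOV tenocytes, a log2 ratio of 4.79 (3.57 to 6.42) beside 0.30 in Pdgfra cells. Col5a2 was at 195 and 1350 CPM, a log2 ratio of 2.79 beside 1.00. Col6a3, of the beaded type VI collagen around cells, was at 106 and 547 CPM, a log2 ratio of 2.37 beside -0.25 in Pdgfra cells. Col1a1 was at 4783 and 11133 CPM, a log2 ratio of 1.22 (1.13 to 1.31) beside 0.95. In summed CPM the type I chain thus differed by a similar amount in both cell groups, while the type III, V and VI chains differed more in tenocytes. The Sham Pdgfra sums lean on few cells, as the highest single cell held 681 Col1a1 UMIs and the highest for Col3a1 held 844. Medians over single Pdgfra cells were 857 CPM in Sham and 7954 CPM in MOV for Col1a1, and 1344 and 14203 CPM for Col3a1. The Col1a1 medians in tenocytes were 2225 and 8027 CPM, so in single cells the likeness of the type I chain did not hold.

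Among 10 fibril-forming collagens 6 were higher and 2 lower in MOV tenocytes (median 1.65), against 2 of 8 higher in Pdgfra cells (median 0.95). Among 14 other collagens 10 were higher and 1 lower (median 1.37), against 3 of 15 higher and 1 lower in Pdgfra cells (median -0.25). Col1a1, Col1a2, Col3a1 and Sparc together took 17004 CPM in Sham and 43068 CPM in MOV tenocytes, and 19839 and 45282 CPM in Pdgfra cells. All 45 collagen genes together took 15339 and 37546 CPM in tenocytes, 23763 and 42047 CPM in Pdgfra cells, and 1677 and 2341 CPM in Pax7 cells. Of 26 genes for collagen folding, secretion and processing, 11 were higher and 3 lower, with a median of 0.84. Serpinh1, the collagen chaperone HSP47, was at 771 and 1904 CPM (log2 ratio 1.30), and Fkbp10, a collagen prolyl isomerase, at 38.1 and 204 CPM (2.42). P4ha2, a prolyl 4-hydroxylase subunit, rested on 1 Sham UMI, at 4.24 and 67.1 CPM (3.99, 1.50 to 9.29).

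Genes that mark activated fibroblasts were called higher in 11 of 14 cases and lower in none, with a median of 2.35, and 12 of 14 were higher in Pdgfra cells, with a median of 1.74. Postn (periostin, which promotes collagen assembly) was at 110 CPM in Sham and 3999 CPM in MOV tenocytes, a log2 ratio of 5.18 (4.63 to 5.80), 5.60 after thinning and 1.02 in Pdgfra cells. The Pdgfra value rests on few Sham cells, as 11.5% of them held a Postn UMI and 1 cell held 1108. In MOV 99.5% of Pdgfra cells held it. Medians over single cells were 0 in Sham and 5730 CPM in MOV for Pdgfra cells, and 0 and 671 CPM for tenocytes. Cthrc1, a secreted collagen triple helix repeat protein, was at 127 and 1694 CPM, a log2 ratio of 3.74 (3.22 to 4.30). Timp1, an inhibitor of metalloproteinases, was at 530 and 4420 CPM, a log2 ratio of 3.06 (2.81 to 3.33) beside 3.53 in Pdgfra cells. Acta2, the contractile smooth muscle actin, was at 220 and 901 CPM, a log2 ratio of 2.03 beside 5.66, so its difference was larger in Pdgfra cells. The 3 members not called were Fap, Cilp and Runx1, a transcription factor at 597 and 415 CPM (-0.53).

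Tendon genes and proteoglycans were lower in MOV tenocytes in part. Of 10 small leucine-rich proteoglycans, 6 were called lower (Dcn, Ecm2, Fmod, Prelp, Omd and Ogn) and 2 higher (Bgn and Lum), with a median of -1.62. Fmod, at 11683 and 3066 CPM, gave a log2 ratio of -1.93 (-1.99 to -1.87). Dcn, at 25989 and 8618 CPM, gave -1.59 (-1.63 to -1.55) beside -2.35 in Pdgfra cells. Prelp, at 2093 and 362 CPM, gave -2.53 (-2.68 to -2.38) beside -1.16. After thinning the log2 ratios were -1.37 for Fmod, -1.39 for Dcn and -2.26 for Prelp, all past 2-fold. In the members that kept the rule after thinning, chosen on genes that go with Fmod, they were -0.94, -0.82 and -1.65, so the calls of Fmod and Dcn rest on which MOV cells count as members.

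The tendon matrix list as a whole had 3 of 23 genes higher and 8 lower, with a median of -0.17 that became 0.053 with TMM scaling and 0.039 with DESeq2 size factors, so the list had no stable direction. Comp was at 3033 and 1441 CPM, a log2 ratio of -1.07 (-1.19 to -0.96) that was -0.93 after thinning, under 2-fold. Thbs4 was at 13221 and 7571 CPM, a log2 ratio of -0.80. Scx was at 877 and 458 CPM, a log2 ratio of -0.94 (-1.15 to -0.72). Thbs4 and Scx thus stayed under 2-fold, and Comp lay at the threshold. Angptl7, at 4422 and 520 CPM, kept a larger difference, with -3.09 (-3.20 to -2.98) in all members, -2.29 after thinning and -4.64 (-5.15 to -4.12) in Pdgfra cells. Col11a1 was at 462 and 690 CPM (0.58, 0.30 to 0.87), and C1qtnf3, a complement C1q and TNF related protein, at 33.9 and 742 CPM (4.45). Tnc, the load-responsive matrix protein tenascin-C, was at 258 and 774 CPM (1.58).

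**Figure D3:**
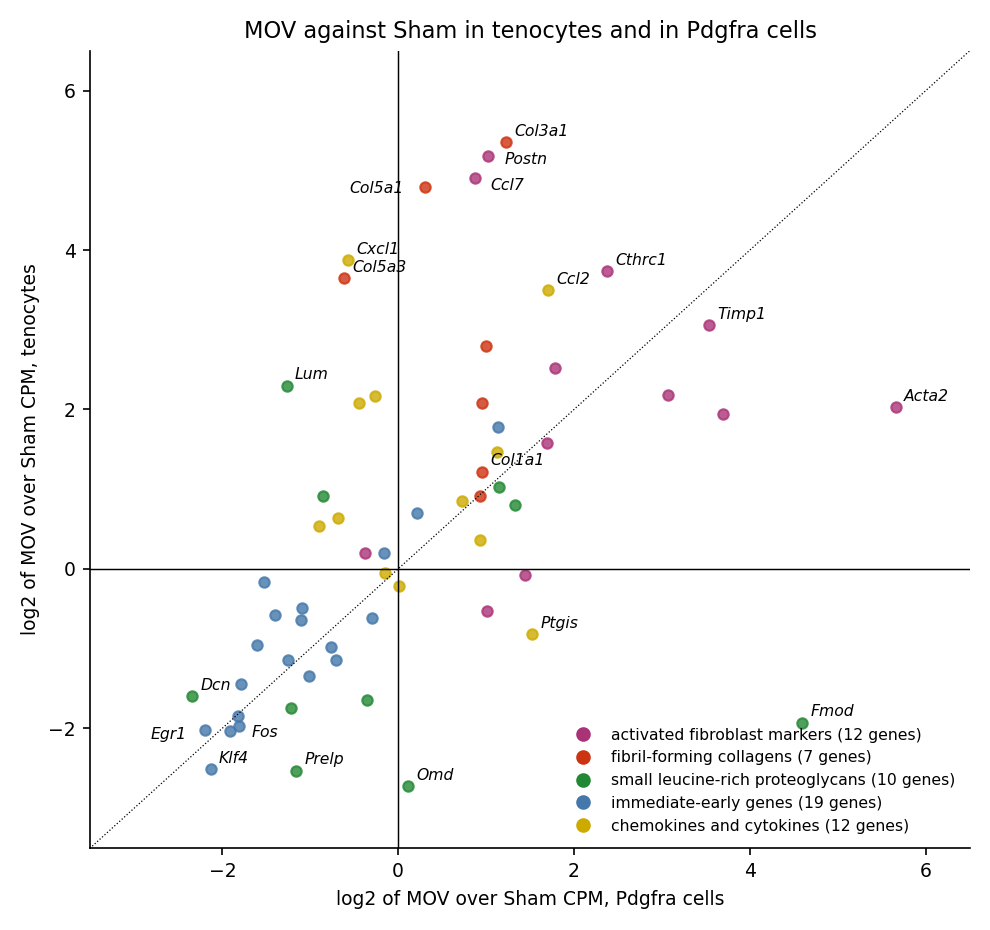
Log2 of MOV over Sham CPM in Pdgfra cells (horizontal) and in tenocytes (vertical) for genes of 5 lists with UMIs in all 4 groups, with equal change on the dotted diagonal. Col3a1, Postn, Col5a1 and Ccl7 lie far above the diagonal, immediate-early genes lie near it, and Fmod lies in the lower right, lower in MOV tenocytes and higher in MOV Pdgfra cells.

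Of 20 chemokine and cytokine genes, 10 were higher in MOV tenocytes and none lower (median 1.16), against 6 of 21 higher and 1 lower in Pdgfra cells (median 0.04). Ccl2, which recruits monocytes, was at 182 CPM in Sham and 2056 CPM in MOV tenocytes, a log2 ratio of 3.50 (3.07 to 3.96) and 3.90 after thinning, beside 1.70 in Pdgfra cells. Ccl7, a related ligand, was at 25.4 and 763 CPM, a log2 ratio of 4.91 (3.78 to 6.36) beside 0.88. Cxcl1, a neutrophil chemokine, was at 59.3 and 869 CPM, a log2 ratio of 3.87 (3.12 to 4.75) beside -0.57. Cxcl2 had no UMI in Sham tenocytes and was at 262 CPM in MOV tenocytes, a log2 ratio of at least 4.37 beside -0.77. In summed UMIs Sham Pdgfra cells already held each chemokine, with Cxcl1 at 2840 CPM and Ccl7 at 752 CPM. For Cxcl2 this rests on few cells, as 23.1% of Sham Pdgfra cells held a UMI and 1 cell held 250. In MOV 60.5% of Pdgfra cells held Cxcl2, with medians over single cells of 0 in Sham and 31.1 CPM in MOV. With members that held at least 3 immune, endothelial or Schwann cell UMIs left out, the log2 ratio was 3.37 for Ccl2 and at least 3.33 for Cxcl2, and it was 5.12 for Col3a1.

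Of 19 matrix proteases and inhibitors, 7 were higher in MOV tenocytes (Mmp3, Mmp13, Mmp14, Mmp16, Mmp23, Adam12 and the inhibitor Timp1) and 1 lower (Timp3), beside 13.8% and 14.2% of all genes, and the median was 0.34. In Pdgfra cells 5 of 21 were higher and 8 lower. Mmp3 (stromelysin-1) had no UMI in Sham tenocytes and was at 424 CPM in MOV tenocytes, with UMIs in 29.5% of cells, a log2 ratio of at least 5.06 beside -0.68 in Pdgfra cells. Mmp13 had a log2 ratio of at least 4.47. After thinning, which leaves fewer UMIs, the bounds were at least 2.81 for Mmp3 and at least 1.87 for Mmp13. Mmp14, a membrane-bound collagenase, was at 38.1 and 328 CPM (3.10, 2.17 to 4.24). Timp3, a matrix-bound inhibitor of these enzymes, was at 1614 and 232 CPM, a log2 ratio of -2.80 (-2.97 to -2.62) beside -1.97 in Pdgfra cells. Reg3g gave 6.83 (4.35 to 12.13), an interval whose width comes from the 1 Sham UMI.

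Immediate-early genes, transcribed within minutes of a stimulus or of tissue handling, were lower in MOV for 9 of 19 genes in tenocytes (median -0.98) and 13 of 19 in Pdgfra cells (median -1.25). Fos was at 6812 CPM in Sham and 1730 CPM in MOV tenocytes, and at 2927 and 835 CPM in Pdgfra cells, with log2 ratios of -1.98 (-2.06 to -1.90) and -1.81. Egr1, an early response factor also placed upstream of tendon collagens, was at 3931 and 964 CPM (-2.03, beside -2.20). The difference was thus of like size in both groups of cells. Ccn2 (connective tissue growth factor, a target of YAP) was at 3245 and 1214 CPM in tenocytes, a log2 ratio of -1.42 (-1.53 to -1.31), beside 273 and 745 CPM and 1.45 in Pdgfra cells.

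The genes ranked furthest between the conditions, beyond those above, were Ptx3 and Itm2a on the higher side and Lepr, Myoc, Terf2ip, Adm, Tnni2, Gsn and Ccn1 on the lower. Ptx3, a pentraxin of innate immunity, had no UMI in Sham and was at 248 CPM in MOV tenocytes, at least 4.28 beside 0.39 in Pdgfra cells. Without the members that held markers of another class its bound was at least 2.96, and after thinning at least 1.32. Itm2a was at 12.7 and 521 CPM (5.36, 3.81 to 7.64), from 3 Sham UMIs. Lepr, the leptin receptor, was at 182 and 4.59 CPM (-5.31, -6.19 to -4.49). Myoc (myocilin) was at 441 and 18.6 CPM (-4.56), and in Pdgfra cells at 1407 and 40.4 CPM (-5.12). Gsn (gelsolin) was at 4999 and 737 CPM (-2.76), beside -4.25, and Adm (adrenomedullin) at 258 and 22.4 CPM (-3.52), beside -2.46, with 31 of its 61 Sham UMIs in 1 cell. Ccn1, a matricellular target of YAP, was at 1207 and 166 CPM (-2.86), beside -1.56. Myoc, Gsn, Adm and Ccn1 were lower in MOV in both groups of cells. Terf2ip was at 165 and 9.44 CPM (-4.13), but 1 Sham cell held 38 of its 39 Sham UMIs. Tnni2, a fast myofibre troponin, was at 127 and 10.2 CPM (-3.64), beside -3.10 in Pdgfra cells and the myofibre sums given above.

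MOV tenocytes were not uniform. Every Sham tenocyte held a Chad UMI (22 of 22, and 90.9% after thinning), and 73 of 156 MOV tenocytes did (46.8%, and 34.0% after thinning). Chad is a gene of the rule, so the split describes the cells and is no comparison of conditions. MOV tenocytes with a Chad UMI had a median of 19237 UMIs and the 83 without had 28517, so the cells without Chad were the deeper ones. Fmod was at 6336 CPM in MOV tenocytes with Chad and 1149 CPM in those without, and Comp at 3150 and 439 CPM. Prelp was at 835 and 84.2 CPM, Cilp2 at 333 and 37.6 CPM, and Mkx at 101 and 34.8 CPM. Scx was at 579 and 387 CPM, a smaller gap than for the matrix genes.

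The reverse held for Col3a1 and a set of matrix and secreted proteins. Col3a1 was at 2013 CPM in MOV tenocytes with Chad and 8180 CPM in those without, both above the 144 CPM of Sham. Postn was at 902 and 5815 CPM, Cthrc1 at 507 and 2390 CPM, and Mfap5 at 184 and 1407 CPM. Ptx3 was at 14.5 and 384 CPM and Itm2a at 69.0 and 786 CPM. Other transcripts were alike on both sides, with Col1a1 at 10583 and 11456 CPM and Timp1 at 4085 and 4617 CPM, each above the Sham values of 4783 and 530 CPM. Lcn2 (lipocalin-2, which binds bacterial siderophores) was higher with Chad, at 883 against 77.3 CPM, as was Reg3g, at 717 against 344 CPM.

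**Figure D4:**
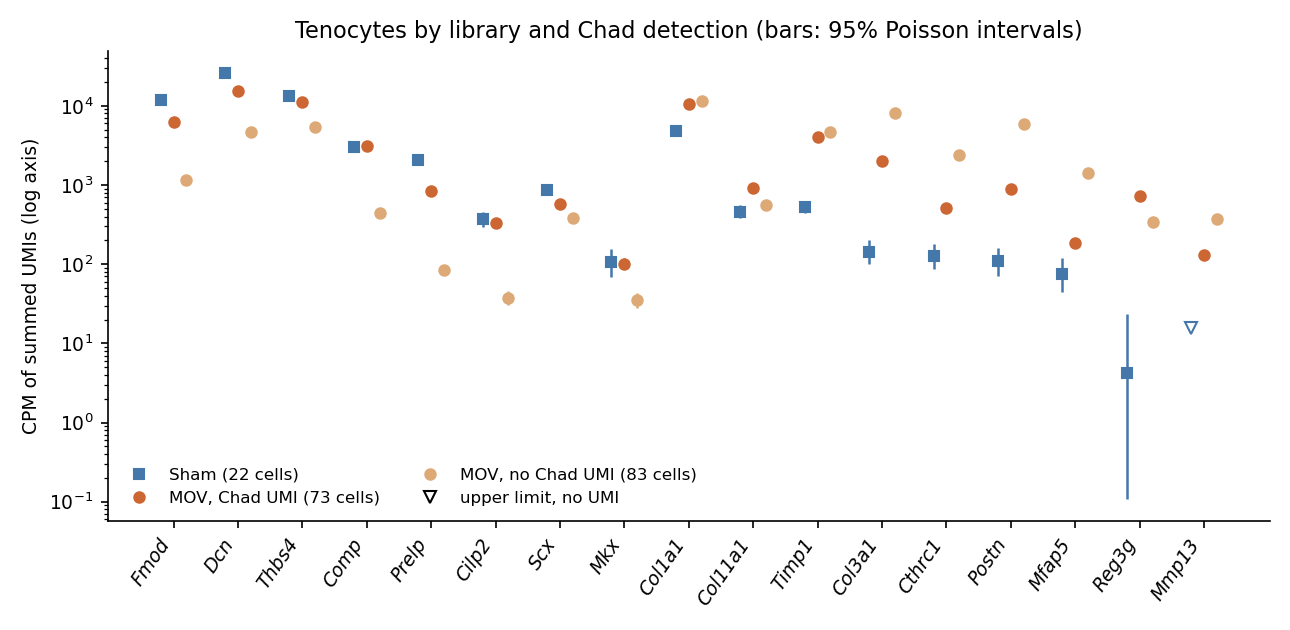
CPM from summed UMIs on a log axis for 17 genes in Sham tenocytes (22 cells), MOV tenocytes with a Chad UMI (73) and MOV tenocytes without (83), with exact 95% Poisson intervals and a triangle for an upper limit. Fmod, Dcn and Prelp step down from Sham to MOV with Chad to MOV without, and Col3a1, Cthrc1, Postn and Mfap5 step up.

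Across the 156 MOV tenocytes, CPM of Fmod and Comp went together (Spearman rho 0.79, and 0.74 after thinning), and Fmod and Col3a1 went apart (-0.58, and -0.56 after thinning). Col3a1 went with Cthrc1 (0.79, and 0.69) and with Postn (0.55, and 0.56). Scx showed little relation to Col3a1 (-0.17, and -0.11). Depth ran along the same line, as total UMIs correlated with Col3a1 at 0.54 and with Fmod at -0.54. Among 22 Sham tenocytes Fmod and Comp again went together (0.59), and Fmod and Col3a1 did not go together or apart (-0.01). These are descriptions over cells of 1 library that share its source and depth. The 5 genes most like Tnmd over MOV tenocytes, of 3376 compared, were Fmod (0.65), Serpinf1 (0.58), Cilp2 (0.56), Comp (0.55) and Itgbl1 (0.55). Over Sham tenocytes, of 1769 genes, they were Col1a2 (0.82), Col1a1 (0.79), Sparc (0.70), Col5a2 (0.65) and Egfr (0.64), and Tnmd there correlated with total UMIs at 0.54.

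**Figure D5:**
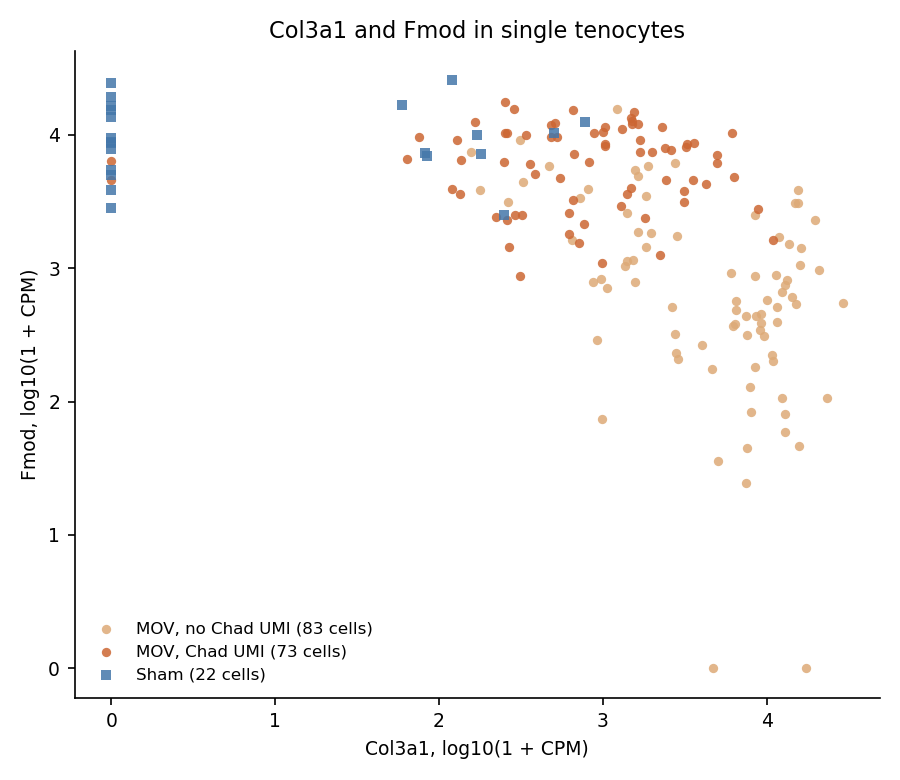
Fmod against Col3a1 in single tenocytes, both as log10(1 + CPM), for Sham (22 cells), MOV with a Chad UMI (73) and MOV without (83). Sham cells sit at high Fmod and low Col3a1, and MOV cells without Chad reach the highest Col3a1 with lower Fmod.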

How the data were processed

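Sham and MOV libraries were made with the 10x 3' kit. The authors deposited UMI counts per gene and cell, raw and not normalized, from Cell Ranger 6.0.0 on mm10, and the submitters' notes also name R 4.0.2 and Seurat 4.0.2. Those matrices, with 32285 genes, were used as deposited. CPM were computed for each group from its summed UMIs, with the group's total as the scale. Ratios have exact conditional (Clopper-Pearson) 95% intervals that cover counting error only. Free RNA in droplets was not removed. Genes of the rule (Tnmd, Chad, Kera, Pax7 and Pdgfra) were left out of counts. Thinning drew 2000 UMIs per cell (seed 7). Doublets, called with the scrublet method in scanpy 1.11.5 at the rate given by the number of cells, were kept and removed as an alternative. TMM factors came from edgeR 4.0.16 and size factors from DESeq2 1.42.0 in R 4.3.3, used for scaling only. Other steps used Python 3.11.15, numpy 2.4.6, scipy 1.17.1, pandas 2.3.3 and matplotlib 3.10.9. Gene coordinates are from GENCODE and promoters from RefSeq.

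Members and the 28 gene lists (407 genes) were chosen with earlier results of these data known. Named genes were the 12 higher and 12 lower against Pdgfra cells, and the 8 higher and 8 lower of MOV against Sham, with at least 20 UMIs whose interval bound lay furthest from no change, plus the 5 genes most like Tnmd among genes seen in at least 50% of members, and genes of a list under description. The scripts were tested on simulated summed counts with counting error only and 200 changed genes in each comparison. For MOV against Sham tenocytes, 79% of changed and 10.8% of unchanged genes were called. For tenocytes against Pdgfra cells in MOV, the shares were 95% and 2.42%. Alternatives changed the rule's thresholds, the mitochondrial and depth limits, the reference cells, the scaling, thinning and the library.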

Additional observations from a re-analysis of the deposited data

Results flagged for a closer look

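Genes that differed at least 2-fold in opposite directions between MOV and Sham in tenocytes and in Pdgfra cells, with both intervals clear of 0, numbered 25 of 8144 measured in both (11 lower and 14 higher in MOV tenocytes). The difference between the cell groups was not tested, since each condition has 1 library. Of those named or listed, Fmod had a log2 ratio of MOV over Sham of -1.93 in tenocytes and 4.59 (2.11 to 9.90, from 1 Sham UMI) in Pdgfra cells. Itgbl1, an integrin-like extracellular protein, had -1.58 and 1.18, and Ccn2 had -1.42 and 1.45. Lum had 2.30 and -1.27. Smoc2, a calcium-binding matrix protein, had 3.41 (1.55 to 6.47, from 2 Sham UMIs in tenocytes) and -1.63. Tgfbi, a matrix protein induced by TGF-beta, had 1.01 (0.27 to 1.85) and -1.14.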

How the results depend on the processing

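Members numbered 12 in Sham with a mitochondrial limit of 5%, and 63 in MOV (2.29%) when cells were thinned before the rule. The other 33 of 36 counts and shares over 9 alternatives stayed within 1.5 times or within the interval. Against Pdgfra cells in MOV, genes higher and lower numbered 294 and 678 after thinning, 320 and 741 with at least 100 UMIs, 396 and 706 in the Sham library alone, and 1038 higher with at least 1 UMI, where fewer or more genes were measured. The other 35 of 42 counts stayed within 1.5 times. Vcam1 turned to -1.43 in the Sham library alone, a ratio that rests on few UMIs, and no other of the 875 gene and list values reversed. For MOV against Sham, 509 and 224 genes were called after thinning. In alternatives chosen after seeing the data, 793 and 703 were called with Chad-positive MOV members alone, where Comp turned to 0.054, and 791 and 696 with members that kept the rule after thinning. Both select MOV members by rule genes, so they say nothing of depth or condition by themselves. Of 369 gene and list values under the alternatives planned, 92 moved and no called value changed sign, while the tendon matrix median crossed 0 with either scaling. Restriction to cells with an Xist UMI was not run, as 0 of the tenocytes and 0 of the Pdgfra cells held one. No paired analysis was possible because each condition has 1 library. Depth limits the Sham values: 22 cells with 236066 UMIs in all.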

Other observations

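Of 34 genes of TGF-beta, activin and BMP signalling measured in MOV, 7 were at least 2-fold higher in tenocytes than in Pdgfra cells and 3 lower, beside 5.31% and 11.5% of all genes, with a median of 0.16. Chrdl1, a secreted BMP antagonist, was at 199 CPM in Sham and 111 CPM in MOV tenocytes against 23.2 CPM in Sham Pdgfra cells, and its log2 ratio to the Pdgfra cells of MOV was 3.63 (3.35 to 3.91). Bmp5, a BMP ligand, was at 80.5 and 28.8 CPM against 15.5 and 3.46 CPM (3.06). Mstn (myostatin, a restraint on muscle growth) was at 15.6 CPM in MOV tenocytes, in few of the cells, against 0.0652 CPM. Of 12 Wnt modulators, 3 were higher (Wif1, Dkk3 and Rspo2) and 6 lower, among them Sfrp4 at 4.08 CPM against 74.2 CPM. Pdgfa, a PDGF ligand, was at 174 and 165 CPM in tenocytes against 5.15 and 60.5 CPM in Pdgfra cells. Id3, a BMP target, was at 2491 CPM in Sham and 676 CPM in MOV tenocytes (-1.88, beside -1.42 in Pdgfra cells), and 11 of 27 genes of the list were lower and 5 higher in MOV tenocytes, beside 13 of 32 lower and 1 higher in Pdgfra cells.

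Cell cycle genes were lower in MOV tenocytes than in MOV Pdgfra cells for 8 of 19 genes and higher for 1, beside 11.5% and 5.31% of all genes, with a median of -0.77. Summed over the 19 genes, medians over single cells were 692 CPM in MOV tenocytes and 660 CPM in MOV Pdgfra cells. Against Sham tenocytes, 9 of 19 were called higher and 2 lower in MOV tenocytes, beside 13.8% and 14.2% of all genes. Mki67, a marker of cycling cells, had no UMI in 22 Sham tenocytes and was at 21.9 CPM in MOV tenocytes against 98.1 CPM in MOV Pdgfra cells. After thinning it was seen in 0.641% of MOV tenocytes, 11.7% of MOV Pdgfra cells and 19.0% of MOV Pax7 cells. Top2a was at 44.4 CPM in MOV tenocytes against 185 CPM (-2.06, -2.29 to -1.84). Cdkn1c, an inhibitor of the cycle, was the gene on the higher side, at 110 against 47.3 CPM. Mki67 was at 2.76 CPM in MOV tenocytes with a Chad UMI and 33.2 CPM in those without.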
